A study of Mus musculus with 7 samples.

Results

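Spleens of GdX-deficient mice taken 6 h after an injection of lipopolysaccharide (LPS) were compared with GdX-deficient spleens taken at 90 min. These 3 libraries, 1 at 6 h and 2 at 90 min, are part of 7 RNA-sequencing libraries, and the other 4 are wild-type spleens, 2 at each time. All mice were labelled C57BL/6, were 8 weeks old and received 20 mg/kg LPS into the peritoneal cavity. The GdX-deficient mice carry the genotype label GdX-/-, whereas the title of the study gives GdX-/Y. How the allele was made is not given in the sources used here. RNA came from mashed whole spleen, although the source label reads splenocytes, and no unstimulated spleen was among the samples, so levels before LPS are not known here. Levels are FPKM (fragments normalised to transcript length and library size), and differences are taken between values of log2(FPKM + 1), so those of weakly expressed genes are understated. With 1 library at 6 h there was no replicate, and this comparison was described without a test. A gene was counted as higher or lower when its 6 h value was 2-fold or more away from the 90 min mean and outside both 90 min values. Of 11378 genes with a mean of at least 1 FPKM over the 7 libraries, 652 were counted (5.73%), 465 as higher (4.09%) and 187 as lower (1.64%) at 6 h. Against replicate 1 alone 1336 genes would be counted, and against replicate 2 alone 585.

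GdX, also called UBL4A, is a small ubiquitin-like protein that works with BAG6 in handing newly made tail-anchored proteins on for insertion into membranes. LPS is a component of the outer membrane of Gram-negative bacteria that Toll-like receptor 4 senses on macrophages, dendritic cells and B cells. The receptor activates NF-kB, MAP kinases and interferon regulatory factors. A first wave of cytokine, chemokine and immediate early transcripts follows, together with inhibitors such as A20 and SOCS proteins that limit it. Slower programmes of antigen presentation, acute phase proteins and metabolism come later.

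The 3 libraries held an estimated 20500000, 20700000 and 19400000 fragments (6 h, then 90 min replicates 1 and 2), and the wild-type libraries 20800000 to 21700000. The 90 min replicates stood apart from each other: 674 genes differed at least 2-fold between them (5.92%), 259 higher in replicate 1 and 415 higher in replicate 2. By the same measure 140 genes differed between the wild-type 90 min replicates and 997 between the wild-type 6 h replicates. Between the GdX-deficient replicates, early cytokine genes had a median difference of 1.24 in favour of replicate 1, and neutrophil genes one of -2.05, in favour of replicate 2. Nothing in the labels ties libraries to separate animals, although the design text counts 1 mouse per library. Hbb-b1, an adult beta-globin gene, stood at 32880 FPKM or above in the GdX-deficient libraries at 90 min and at 16577 FPKM at 6 h, against at most 13.8 FPKM in wild type. The genotypes therefore also differ at a gene on another chromosome than Ubl4a, and their effects cannot be told apart in any comparison between genotypes. Globin genes took 30.9% and 23.5% of all FPKM at 90 min and 13.6% at 6 h. The median difference over all genes was 0.25, and 56.8% of genes lay above both 90 min libraries while 15.8% lay below both. Quantile normalization brought the median to 0.02 and turned the split to 262 higher (2.3%) and 325 lower (2.86%), with 261 and 179 genes counted under both scalings. Ubl4a itself stood at 10.6 FPKM at 6 h and at 4.03 and 5.69 FPKM at 90 min. In wild type it stood at 11.9 and 14.01 FPKM at 6 h and at 5.62 and 7.5 FPKM at 90 min, so its level does not set the genotypes apart, and the libraries are called GdX-deficient after their labels. The overlapping entry Gm44504 stood at 0.66, 1.01 and 1.86 FPKM in these libraries and at 14.5 to 51.1 FPKM in wild type. Ddx3y, Kdm5d, Uty and Eif2s3y, which are Y-linked, were detected in all 7 libraries.

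The gene furthest below its 90 min level was Il6, followed by Cxcl1. Il6 encodes interleukin 6, the cytokine that drives the acute phase response and STAT3. It stood at 72.2 and 20.98 FPKM at 90 min and at 1.35 FPKM at 6 h, a difference of -4.09 or 17.1-fold on the FPKM + 1 scale; no other named gene was further below. Cxcl1, a neutrophil-attracting chemokine, stood at 182 and 27.1 FPKM at 90 min and at 4.44 FPKM at 6 h, a difference of -3.72. The estimated fragments behind these Cxcl1 values were 3401, 474 and 82. The 90 min replicates differed from each other by several-fold in both genes, yet the 6 h library was below the lower replicate by 3.23 for Il6 and by 2.37 for Cxcl1 on the log2 scale.

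The promoters of Il6, Cxcl1 and Cxcl2 are shown because these cytokine and chemokine genes were lower together and carry the letters of an NF-kB site close to the start. Each is 150 bases of RefSeq sequence that ends just before the annotated start, 5′ to 3′ on the strand of the gene in GRCm38.p6, with matches on either strand to GGG, any 2 bases and TTTCC in capitals.
Il6: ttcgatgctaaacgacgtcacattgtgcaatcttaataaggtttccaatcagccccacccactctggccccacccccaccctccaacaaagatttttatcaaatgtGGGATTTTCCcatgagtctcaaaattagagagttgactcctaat
Cxcl1: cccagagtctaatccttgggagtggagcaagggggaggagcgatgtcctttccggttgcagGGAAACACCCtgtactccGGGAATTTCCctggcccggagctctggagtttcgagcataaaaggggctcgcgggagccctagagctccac
Cxcl2: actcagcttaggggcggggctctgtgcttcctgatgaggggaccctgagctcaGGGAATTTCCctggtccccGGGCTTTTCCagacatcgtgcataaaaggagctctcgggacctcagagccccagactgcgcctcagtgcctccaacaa
The windows lie at chr5:30012964-30013113, chr5:90891095-90891244 and chr5:90903749-90903898, all on the plus strand. Il6 holds 1 match, which begins 44 bases before the start. Cxcl1 holds 2, which begin 89 and 71 bases before it, and Cxcl2 holds 2, at 97 and 78 bases. Over the 250 bases before the start, the letters were found in 1.95% of the 9146 tested genes with a promoter in the table, in 3 of 15 early cytokine genes (20%) and in 4 of 12 inflammatory chemokine genes (33.3%). They were found in 7 of 130 genes counted as lower (5.38%) and in 14 of 364 counted as higher (3.85%). A match is a description of the letters and does not show binding.

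**Figure D1:**
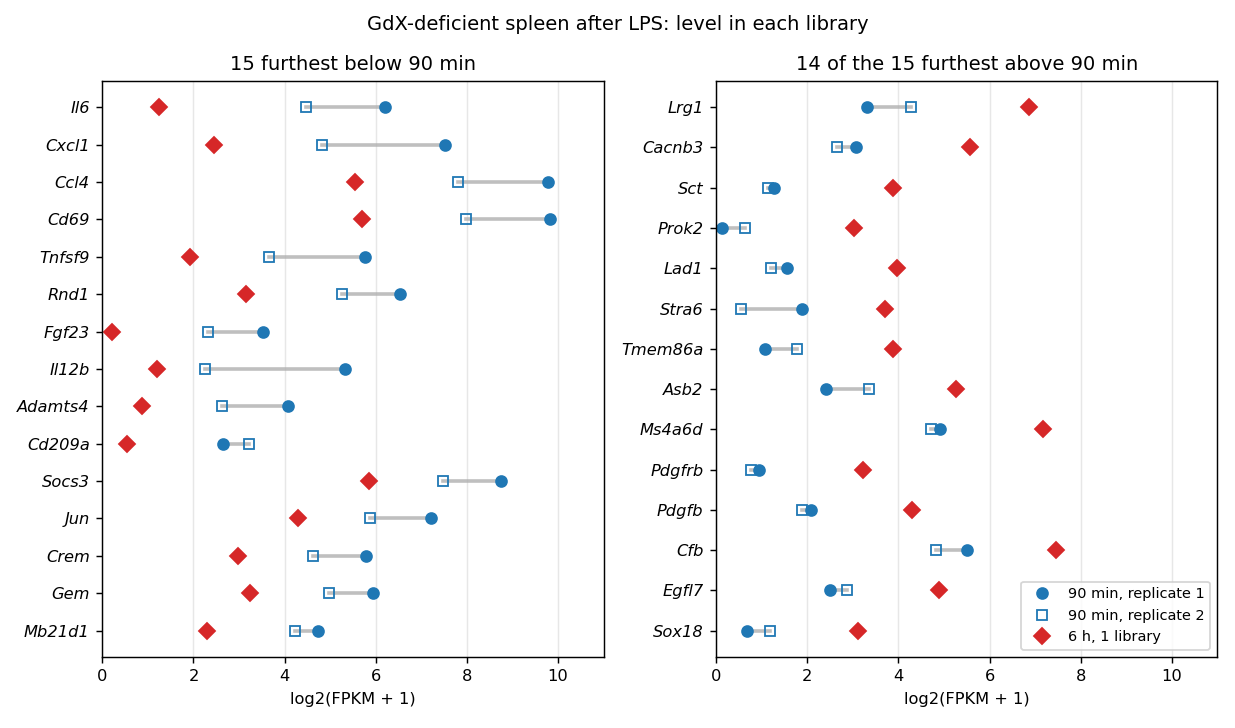
Level of the 15 named genes furthest below (left) and 14 of the 15 furthest above (right) the 90 min mean in GdX-deficient spleen, as log2(FPKM + 1) on the horizontal axis. Blue symbols are the 90 min replicates, joined by a grey line, and red diamonds are the 1 library at 6 h. In every row the diamond lies outside both 90 min symbols, and replicate 1 was above replicate 2 in 14 of the 15 lower genes.

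Among 21 tested early cytokine genes, 10 were counted as lower and none as higher at 6 h, with a median difference of -0.92 against 0.25 over all genes. Il12b, which encodes the shared p40 subunit of interleukins 12 and 23, stood at 38.9 and 3.76 FPKM at 90 min and at 1.31 FPKM at 6 h. Il27 (95.2 and 24.97 FPKM, then 12 FPKM), Csf3 (20.9 and 1.52 FPKM, then 0.67 FPKM), Il10, Il15, Csf2, Lif and the costimulatory ligand Tnfsf9 were also lower. Tnfsf9 went from 53.2 and 11.6 FPKM to 2.78 FPKM. These genes differed in how much of the difference was set by replicate 1. Set against each 90 min library in turn, the list had a median of -1.52 with 15 lower genes against replicate 1, and of -0.22 with 5 lower genes against replicate 2. Il6 and Tnfsf9 were well below both replicates, whereas Lif stood at 7.28 and 1.21 FPKM at 90 min and at 1.05 FPKM at 6 h.

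Tnf, the founding cytokine of septic shock, was not counted and stood at 67.5 and 32.6 FPKM at 90 min and at 27.9 FPKM at 6 h, a difference of -0.73 that left it below both replicates. Il1b (265, 120 and 141 FPKM), Il1a (35.4, 10.8 and 15.7 FPKM) and the interleukin 1 antagonist Il1rn (146, 78.7 and 88.7 FPKM) lay between the 90 min replicates at 6 h. Il18 was higher, at 80.9 FPKM against 43.6 and 45.9 FPKM, a difference of 0.84 that did not reach 2-fold. Ifng, the macrophage-activating cytokine of NK and T cells, was counted as lower, at 18.7 and 7.86 FPKM at 90 min and 1.99 FPKM at 6 h, a difference of -2.14.

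Of 19 inflammatory chemokine genes, 7 were counted as lower and 1 as higher, with a median of -0.85. The median was -0.94 against replicate 1 and -0.04 against replicate 2, and against replicate 2 alone 5 were lower and 4 higher. Ccl4, an attractant of monocytes and T cells, went from 882 and 222 FPKM to 45.3 FPKM. Cxcl10, the interferon-inducible attractant of activated T cells, stood at 2194 and 1212 FPKM at 90 min and at 359.5 FPKM at 6 h. Ccl2, Ccl7, Cxcl2 and Cxcl5 completed the group, all lower than both replicates. Cxcl2 was close to the lower replicate, at 11.3 FPKM against 114 and 16.4 FPKM. Ccl5, which also attracts T cells, did not follow Ccl4 and stood at 868, 377 and 905 FPKM. Cxcl9 stood at 89.3, 95.3 and 115 FPKM. Cxcl16, a membrane-bound chemokine, was counted as higher, at 65.7 FPKM against 32.2 and 20.4 FPKM.

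Inhibitors of the NF-kB response were among the lower genes. Of 23 genes of the NF-kB and feedback list, 8 were counted as lower and none as higher, with a median of -0.46. Against replicate 1 alone 10 were lower, with a median of -0.83, and against replicate 2 alone 2 were lower, with a median of -0.16. Nfkbia, which encodes the inhibitor IkB-alpha, stood at 991 and 414 FPKM at 90 min and at 287 FPKM at 6 h. Tnfaip3, which encodes the deubiquitinase A20, stood at 229, 79.1 and 45.3 FPKM in the same order. Nfkbiz (237, 57.4 and 27.7 FPKM), Tnip3, Bcl3, Nfkbid, Birc3 and the receptor gene Cd40 were the other 6. The NF-kB subunit genes were not counted: Rela stood at 99.0, 81.7 and 67.9 FPKM, Nfkb1 at 139, 87.5 and 69.9 FPKM and Relb at 119, 82.2 and 112 FPKM. Of these subunit genes, Relb lay between the 90 min replicates and the others below both.

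Immediate early genes, which are switched on within minutes of a signal, were lower for 8 of 20 tested genes, with a median of -0.86 and none counted as higher. Against replicate 1 alone 14 were lower and 1 higher, with a median of -1.35, and against replicate 2 alone 4 were lower, with a median of -0.26. Jun, a subunit of AP-1, went from 148 and 58.0 FPKM to 18.7 FPKM. Myc stood at 499 and 115 FPKM at 90 min and at 53.1 FPKM at 6 h. Atf3, a repressor of inflammatory genes, stood at 60.2, 28.9 and 9.74 FPKM. Nr4a3, Junb, Fosl2, Ier3 and Maff were the others. Nr4a1 was not counted because its 27.3 FPKM at 6 h lay between the 195 and 21.4 FPKM of the 90 min replicates. Klf2, a factor of quiescent lymphocytes, was higher at 152 FPKM against 48.9 and 126 FPKM, a difference of 0.94 that did not reach 2-fold.

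In the JAK-STAT and SOCS list, 5 of 20 genes were counted as lower and 1 as higher. Socs3, which limits signalling by interleukin 6, stood at 429 and 178 FPKM at 90 min and at 57.0 FPKM at 6 h. Socs1, which limits interferon signalling, stood at 370, 214 and 75.5 FPKM. Cish, Pim1 and Pim2, targets of STAT5 and related factors, were the other lower genes, and Socs2 was higher, at 19.2 FPKM against 9.39 and 6.17 FPKM. Genes of activated B and T cells, most of them for surface proteins, were lower for 4 of 14 members, for 9 against replicate 1 alone and for 1 against replicate 2 alone. Cd69, an early activation antigen, went from 898 and 251 FPKM to 50.5 FPKM. Cd83 (539 and 142 FPKM, then 81.2 FPKM), Batf and Il2ra were the other 3. In the BCL2 family 4 of 16 genes were lower, the pro-survival copies Bcl2a1a, Bcl2a1b and Bcl2a1d and the pro-death gene Bcl2l11, and 1, Bak1, was higher. With replicate 1 as the only comparator 5 were lower and 1 higher, and against replicate 2 alone 2 were lower and none higher. The Bcl2a1 copies are near-identical, so how fragments were divided among them is uncertain.

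The remaining genes among the 15 furthest below have other roles. Rnd1 and Gem encode small GTPases, Adamts4 a matrix protease and Crem a cAMP-responsive transcription factor. Fgf23 encodes a phosphate-regulating hormone and was at 10.5 and 3.95 FPKM at 90 min and at 0.15 FPKM at 6 h. Cd209a, a lectin gene of dendritic cells, stood at 5.26 and 8.31 FPKM and then at 0.45 FPKM, on an estimated 156, 231 and 13 fragments. It was the only one of the 15 that was higher in replicate 2 than in replicate 1. Mb21d1, which encodes the DNA sensor cGAS, stood at 25.6, 17.7 and 3.91 FPKM. Under quantile normalization the 15 differences ranged from -2.42 to -4.43.

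Interferon-stimulated genes were counted in both directions. Of 41 tested, 6 were counted as higher and 5 as lower, with a median of -0.37, and 23 lay below both replicates and 14 above both, beside 15.8% and 56.8% of all genes. The lower genes were Ifit1, Ifit2, Usp18, Ifih1 and Cmpk2. Ifit1, which binds foreign RNA ends, stood at 515 and 419 FPKM at 90 min and at 131 FPKM at 6 h. Oasl2, Oas1g, Bst2, Ifi44, Ifi27l2a and Ddx60 were higher. Bst2, which encodes the virus-retaining protein tetherin, stood at 253, 182 and 483 FPKM, and Oasl2 at 89.8, 64.4 and 171 FPKM. Quantile normalization gave 3 higher and 8 lower. Against replicate 1 alone 1 was higher and 10 were lower, with a median of -0.64, and against replicate 2 alone 5 were counted in each direction, with a median of -0.09. Among 15 genes for interferon-inducible GTPases only Irgm1 was counted, as lower, at 216 FPKM against 500 and 400 FPKM. In this list 2 genes were higher and none lower against replicate 2 alone, and quantile normalization gave 1 in each direction. No gene of 8 in the IRF list was counted, beside 5.73% of all genes.

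Lrg1, which encodes a secreted leucine-rich glycoprotein of the acute phase, was furthest above its 90 min level. It stood at 8.94 and 18.4 FPKM at 90 min and at 116 FPKM at 6 h, a difference of 3.08 or 8.45-fold on the FPKM + 1 scale, from an estimated 251, 485 and 3241 fragments. Ms4a6d, a membrane protein gene of myeloid cells, stood at 28.9, 25.1 and 144 FPKM, and Cfb, which encodes complement factor B, at 44.6, 27.2 and 175 FPKM. In each of these the 90 min replicates lay close together beside the distance to 6 h.

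Acute phase genes had a median of 0.88, and 5 of 10 were counted as higher and none as lower. Against replicate 1 alone 2 were higher and 1 was lower, with a median of 0.60, and against replicate 2 alone 6 were higher, with a median of 1.13. With no filter on low values the median was 0.19. Saa3, a serum amyloid A gene, stood at 88.3 and 36.8 FPKM at 90 min and at 153 FPKM at 6 h. Lcn2, whose product withholds iron from bacteria, stood at 164, 137 and 322 FPKM. Serpina3n (20.9, 6.92 and 47.6 FPKM), Cp and Hp, which encode a protease inhibitor, ceruloplasmin and haptoglobin, were the others. Hp lost its count under quantile normalization. The remaining 5 of the list included Ptx3, which is listed at 0 at 6 h and stood at 1.33 and 0.19 FPKM at 90 min.

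Several of the 15 genes furthest above belong to vessels and their supporting cells. Pdgfb, a growth factor released by endothelium, stood at 3.26 and 2.68 FPKM at 90 min and at 18.8 FPKM at 6 h. Pdgfrb, its receptor on pericytes, stood at 0.91, 0.71 and 8.34 FPKM, and Sox18 and Egfl7, both endothelial genes, at 0.59, 1.28 and 7.68 FPKM and at 4.67, 6.37 and 28.6 FPKM. By the 2-fold rule 2 of 7 stroma and 1 of 5 tested endothelium genes were counted as higher, beside 4.09% of all genes, and none as lower. All 7 stroma genes and all 5 tested endothelium genes lay above both 90 min replicates, where 56.8% of all genes did. Stroma medians were 0.76 as deposited and 0.54 after quantile normalization, and those of endothelium 0.50 and 0.36. The summed FPKM of the stroma list was 55.6 and 44.5 at 90 min and 95.4 at 6 h, that of the endothelium list 48.8, 50.1 and 75.3, and no gene of either was at 0. In bulk spleen more cells of a type and more RNA per cell cannot be told apart, and the part of these cells in the differences was not tested. Kdr, the VEGF receptor (1.36, 1.44 and 5.68 FPKM), and the collagen gene Col1a1 (1.71, 1.44 and 5.25 FPKM) were the counted genes of these lists, beside Pdgfrb. Col1a1 lost its count under quantile normalization.

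The other genes furthest above had varied roles. Cacnb3, a calcium channel subunit gene, stood at 7.45 and 5.25 FPKM and then at 46.4 FPKM, and Sct, the secretin gene, at 1.43, 1.2 and 13.8 FPKM. Prok2, a chemokine-like peptide gene of neutrophils, stood at 0.1, 0.56 and 7.2 FPKM. Asb2, a ubiquitin ligase adaptor gene, stood at 4.29, 9.3 and 37.5 FPKM. Lad1, Stra6 and Tmem86a stood at 14.7, 11.99 and 13.8 FPKM at 6 h. Stra6, the receptor gene for retinol-binding protein, had 90 min replicates of 2.72 and 0.45 FPKM. Replicate 1 was the higher 90 min library in 8 of the 15.

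Genes known to respond to glucocorticoids were found in both directions: 6 of 21 were counted as higher and 3 as lower, and the median went from 0.22 to -0.02 under quantile normalization, while that of all genes went from 0.25 to 0.02. Set against replicate 1 alone, 5 were counted in each direction, and against replicate 2 alone 5 were higher and 2 lower. Ddit4, which restrains the growth kinase mTORC1, stood at 9.84 and 37.6 FPKM at 90 min and at 81.0 FPKM at 6 h. Tsc22d3, which encodes GILZ, stood at 38.8, 146 and 172 FPKM, and Cxcr4 at 18.8, 126 and 146 FPKM, so both were close to replicate 2 and far from replicate 1. Il1r2, the decoy receptor of interleukin 1, Pdk4 and Lcn2 were also higher. Pdk4, which turns the cell from glucose to fat oxidation, stood at 0.2, 0.6 and 4.28 FPKM. Mt1, a metallothionein gene, went from 629 and 210 FPKM to 103 FPKM, and Cd163 and Cdkn1a were lower too. Of 13 clock genes, Nr1d1 (0.41, 0.5 and 3.29 FPKM) and Dbp were higher and Nfil3 was lower. Dbp lost its count under quantile normalization.

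In the B cell list 1 of 10 genes was counted in each direction, Cd79b as higher and Fcer2a as lower, beside 4.09% and 1.64% of all genes. Against replicate 2 alone none was counted, and against replicate 1 alone 3 were higher and 1 lower. The summed FPKM was 1479 and 2446 at 90 min and 2086 at 6 h. No T cell gene of 10, NK cell gene of 7 or dendritic cell gene of 6 was counted, beside 5.73% of all genes. Of the dendritic cell genes 1 was lower under quantile normalization, and 1 against replicate 2 alone. All 8 red cell genes were below both replicates, where 15.8% of all genes were, with a median of -0.77, and 1 was counted, against 4 under quantile normalization and 2 when scaled without globin genes. The neutrophil list depended on the replicate: its summed FPKM was 1127 and 4901 at 90 min and 2661 at 6 h, and its median was 1.31 against replicate 1 and -0.80 against replicate 2. Within it, the receptors Cxcr2 (5.68, 27.5 and 40.1 FPKM) and Csf3r were counted as higher, and the granule genes Camp (49.1, 59.0 and 15.2 FPKM), Ltf and Ngp as lower. In the macrophage list 4 of 12 genes were counted, beside 5.73% of all genes. Marco, a scavenger receptor gene, went from 60.3 and 38.9 FPKM to 194 FPKM and Cd5l was higher, whereas Vcam1 (149, 119 and 55.6 FPKM) and Cd163 were lower. Pancreas and fat markers summed to at most 18.3 FPKM in these 3 libraries. Of 79 ribosomal protein genes and 87 nuclear genes of oxidative phosphorylation, none was counted, beside 5.73% of all genes.

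The same interval in wild-type spleen, with 2 libraries at each time, was set beside these values. It shares no library with the GdX-deficient comparison. Genes are said to rise or fall in wild type by a test with no limit on the fold. In GdX-deficient spleen they are counted by the 2-fold rule, so counts in the genotypes are not alike in kind. At least 2-fold with no overlap were 1558 genes in wild type (13.7%). In a limma fit of the 4 groups, 1218 genes passed an adjusted p of 0.05 (10.7%), 499 rising (4.39%) and 719 falling (6.32%). Scaled without globin genes, 191 rose and 517 fell, and with wild-type 6 h replicate 1 left out, 783 rose and 734 fell. With wild-type 90 min replicate 1 or 2 left out, 450 and 550 passed. Of the 652 genes counted in GdX-deficient spleen, 159 were among them, which is 24.4% of the first list and 13.1% of the second, and 142 of the 159 had the same direction. Of the 15 genes furthest below, 13 fell in wild type by this test, and Jun and Crem missed the threshold. Of the 15 furthest above, 6 rose, namely Lrg1, Cacnb3, Sct, Ms4a6d, Cfb and Egfl7. Il6 stood at 185 and 120 FPKM at 90 min and at 34.7 and 31.1 FPKM at 6 h in wild type, with a fitted change of -2.15 (SE 0.49, limma adjusted p = 0.0254). The difference between the genotypes in the change of Il6 was -1.94 (SE 0.77, limma adjusted p = 0.430) and did not pass. Early cytokines, inflammatory chemokines and immediate early genes had negative medians in wild type too, at -0.81, -1.28 and -1.48.

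**Figure D2:**
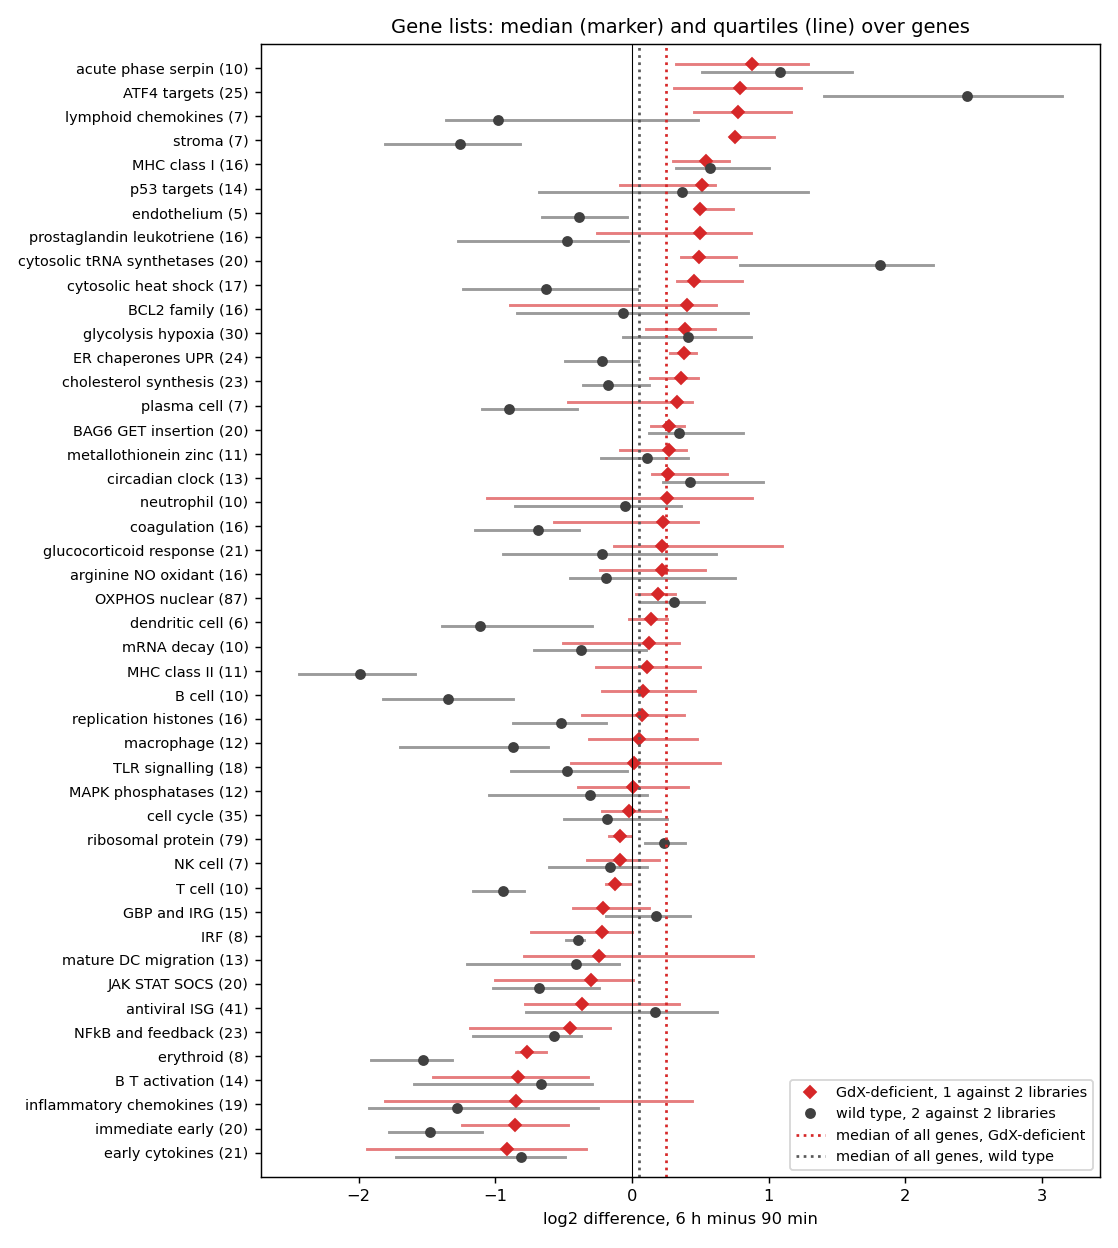
Median (marker) and quartiles (line) over genes of the log2 difference between 6 h and 90 min for each gene list with at least 5 tested genes, in GdX-deficient (red) and wild-type (grey) spleen, with the number of genes in brackets. Dotted lines are the medians of all genes, 0.25 and 0.05. Early cytokines lie at the bottom in GdX-deficient spleen, and MHC class II, stroma and ATF4 targets are lists in which the red and grey markers lie far apart.

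Whether the change with time differed between the genotypes was tested as an interaction in the same fit, in which the lone 6 h library is assumed to vary like the 3 groups with 2 libraries. The spread at 6 h in GdX-deficient spleen was itself not measured. The test called 8 genes (0.0703%), and before adjustment 1136 stood under a p of 0.05 (9.98%). The difference between replicates correlated with transcript length over 11180 genes, which are not independent: Spearman's coefficient was -0.445 for the wild-type 90 min pair, -0.589 for the wild-type 6 h pair and -0.164 for the GdX-deficient pair. The part of this in the interaction was not tested. With either GdX-deficient 90 min library left out, limma called 0 genes. With wild-type 90 min replicate 1 or 2 left out it called 19 and 37, and with wild-type 6 h replicate 1 or 2 left out 169 and 238.

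MHC class II genes, which present peptides to CD4 T cells, stood near their 90 min level in GdX-deficient spleen and fell in wild type. By the 2-fold rule none of 11 was counted in GdX-deficient spleen, beside 5.73% of all genes, and the median was 0.11. With limma 10 of 11 fell in wild type, beside 6.32% of all genes, and the median was -1.99. The summed FPKM of the list was 10509 and 8892 at 90 min in GdX-deficient spleen and lower than both at 6 h, at 8277. In wild type it went from 11173 and 12310 to 3175 and 2868. H2-Oa, a chaperone subunit that limits peptide exchange, stood at 87.4 and 96.3 FPKM at 90 min and at 98.9 FPKM at 6 h in GdX-deficient spleen. In wild type it stood at 109 and 84.8 FPKM and then at 10.5 and 7.66 FPKM. The interaction was 3.39 (SE 0.42, limma adjusted p = 0.0430). Its partner H2-Ob fell from 136 and 128 FPKM to 11.52 and 12.1 FPKM in wild type and stood at 129, 204 and 108 FPKM in GdX-deficient spleen (interaction 2.80, SE 0.44, limma adjusted p = 0.072). All 11 genes had an unadjusted interaction p under 0.05, where 9.98% of all genes did, and 1 passed after adjustment. Cd74, the invariant chain gene, differed least, with an interaction of 1.38. B cell genes moved alongside: their summed FPKM went from 1759 and 1680 to 561 and 632 in wild type, and from 1479 and 2446 to 2086 in GdX-deficient spleen, with no gene of the list at 0. The median differences of dendritic cell, macrophage and T cell markers were -1.11, -0.87 and -0.95 in wild type and 0.14, 0.05 and -0.12 in GdX-deficient spleen, also with no gene at 0. Summed FPKM of the dendritic cell list was 98.1 and 92.8 and then 98.2 and 57.7 in wild type, and 80.3, 67.9 and 76.1 in GdX-deficient spleen. That of the macrophage list was 1157 and 1181 and then 883 and 662, against 1034, 881 and 1087. The part of these cells in the MHC class II values was not tested.

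**Figure D3:**
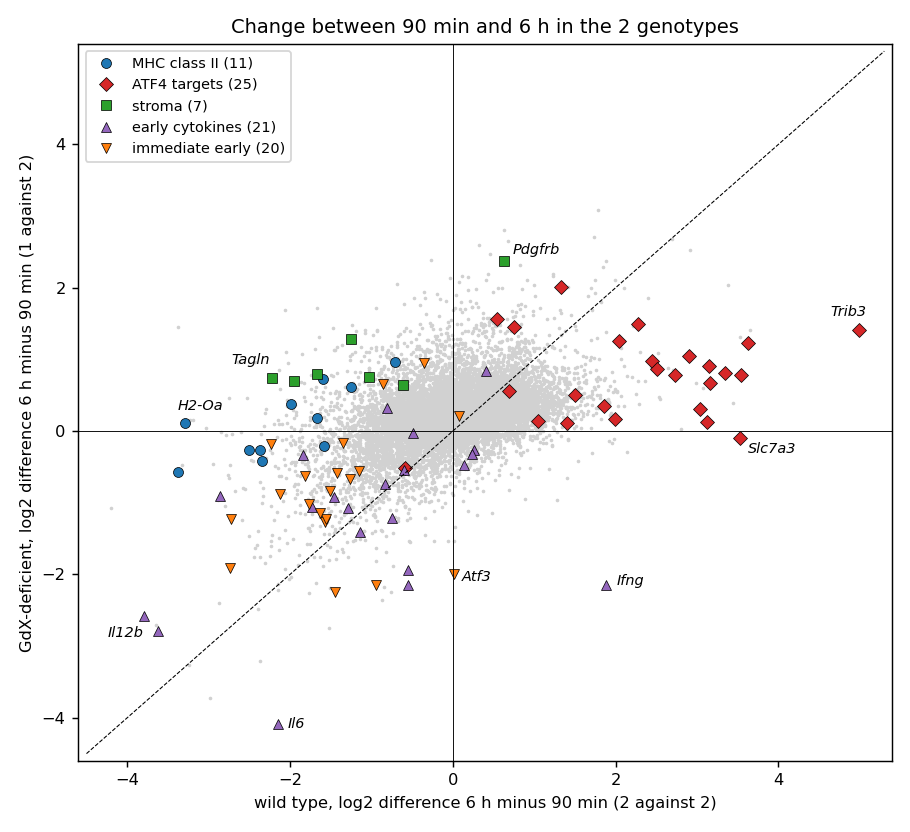
Log2 difference between 6 h and 90 min for 11378 genes in wild-type (horizontal) and GdX-deficient (vertical) spleen; grey dots are single genes, coloured symbols are 5 gene lists with their number of tested genes, and the dashed line marks equal change. MHC class II genes lie left of the line near 0 on the vertical axis, ATF4 targets lie right of it apart from Atf5, Ddit4, Slc7a11 and Stc2, and 19 of 21 early cytokines lie below 0 on the vertical axis.

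Targets of ATF4, the transcription factor of the amino acid and stress response, gave the opposite picture. In wild type 20 of 25 rose by limma, with a median of 2.45. In GdX-deficient spleen 8 of 25 were counted as higher by the 2-fold rule and none as lower, with a median of 0.79, or 0.59 after quantile normalization. Trib3, a pseudokinase gene, stood at 0.51 and 0.72 FPKM at 90 min and at 3.27 FPKM at 6 h in GdX-deficient spleen, on an estimated 21, 28 and 132 fragments. In wild type it went from 0.63 and 0.70 FPKM to 51.1 and 52.8 FPKM, and the interaction was -3.59 (SE 0.43, limma adjusted p = 0.0430). Slc7a3, a transporter of cationic amino acids, stood at 0.37, 0.42 and 0.31 FPKM in GdX-deficient spleen and at 0.27, 0.20, 12.8 and 13.7 FPKM in wild type. Cth, of cysteine synthesis, and Bcat1, of branched-chain amino acid breakdown, likewise stayed under 1 FPKM in the 3 GdX-deficient libraries and stood at 9.34 to 11.2 FPKM in wild type at 6 h. Of the 4 genes named here, Slc7a3, Cth and Bcat1 were under 1 FPKM at 90 min in wild type too. They passed the filter on the mean only through wild type at 6 h, so the filter itself favours a large interaction for them. All 4 passed the interaction test, and 16 of the 25 had an unadjusted p under 0.05, beside 9.98% of all genes. None of the 4 passed with a pseudocount of 0.1, with scaling without globin genes or with either GdX-deficient 90 min library left out, where limma adjusted p-values lay between 0.0684 and 0.221.

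Not all members were low in GdX-deficient spleen. Ddit4, Atf5 (14.98, 8.58 and 35.6 FPKM), Ddit3 (12.2, 19.3 and 37.9 FPKM), Sesn2, Stc2, Psat1 and Eif4ebp1 were counted as higher beside Trib3. Atf5 and Stc2, both higher than 2-fold, had interactions of 1.01 and 0.69 in the other direction, with limma adjusted p = 0.562 and 0.619. Atf4 itself stood at 196, 156 and 193 FPKM in GdX-deficient spleen. In wild type it rose from 291 and 254 FPKM to 635 and 494 FPKM. Serine synthesis genes differed widely: Phgdh stood at 33.5, 39.3 and 69.0 FPKM in GdX-deficient spleen, and at 52.2 and 44.7 FPKM and then 472 and 403 FPKM in wild type (interaction -2.24, limma adjusted p = 0.086).

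The promoter of Asns, the asparagine synthetase gene, is shown as an example of this list that carries the letters TGATGNAA, a form of the element bound by ATF4 with CCAAT/enhancer binding proteins. It covers 150 bases of RefSeq sequence before the start at chr6:7693210-7693359 of GRCm38.p6 on the minus strand, with the match in capitals.
Asns: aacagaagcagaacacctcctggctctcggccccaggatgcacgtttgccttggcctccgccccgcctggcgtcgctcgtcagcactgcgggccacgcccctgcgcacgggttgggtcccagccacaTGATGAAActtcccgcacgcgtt
The match begins 23 bases before the start. Both strands were searched over 250 bases, and the letters were found in 2.47% of all tested genes with a promoter, in 5 of 21 ATF4 targets (23.8%), in 12 of 130 genes counted as lower (9.23%) and in 8 of 364 counted as higher (2.2%). Asns stood at 7.83 and 7.19 FPKM at 90 min and at 14.6 FPKM at 6 h in GdX-deficient spleen, a difference of 0.87. In wild type it rose from 6.92 FPKM in both libraries to 39.2 and 49.1 FPKM.

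Of cytosolic tRNA synthetases, which load amino acids onto tRNA, 14 of 20 rose in wild type by limma, beside 4.39% of all genes. Their wild-type median was 1.82. In GdX-deficient spleen 1 of 20 was counted as higher, near the 4.09% of all genes, with a median of 0.49. Wars, the tryptophan enzyme that interferon also induces, was that gene, at 69.8 FPKM against 27.5 and 21.9 FPKM. Lars stood at 14.8, 11.7 and 18.7 FPKM in GdX-deficient spleen and at 15.5, 15.5, 83.6 and 107 FPKM in wild type. The median interaction over the 20 genes was -1.14. Ciart, a clock repressor gene, resembled them, with 2.43, 1.69 and 2.1 FPKM against a rise from 2.53 and 2.82 FPKM to 24.0 and 25.2 FPKM in wild type (interaction -2.77, limma adjusted p = 0.074).

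Genes that were higher in GdX-deficient spleen and fell in wild type numbered 16, and 1 was lower in the first and rose in the second. That 1 was Ifng, which stood at 9.53 and 10.1 FPKM at 90 min and at 35.8 and 42.3 FPKM at 6 h in wild type (fitted change 1.89, limma adjusted p = 0.0167). Its interaction of -4.03 did not pass (limma adjusted p = 0.063). NK cell genes, a source of interferon gamma, summed to 184, 228 and 238 FPKM in GdX-deficient spleen and to 169, 153, 226 and 180 FPKM in wild type, in the same order of libraries. The 16 were picked for their opposite directions, so large interactions among them follow from that choice and are no support. Des and Cd5l are among the 16. Des, which encodes the muscle and pericyte filament desmin, stood at 9.33 and 8.17 FPKM and then at 31.0 FPKM in GdX-deficient spleen. In wild type it went from 25.3 and 20.7 FPKM to 6.85 and 6.19 FPKM (interaction 3.39, SE 0.44, limma adjusted p = 0.0430). Cd5l, a secreted macrophage protein gene, stood at 23.5, 22.1 and 50.1 FPKM, against 33.7, 33.1, 8.36 and 6.37 FPKM in wild type (interaction 3.15, SE 0.41, limma adjusted p = 0.0430).

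Stroma genes stood beside Des in the same way. Their summed FPKM was 244 and 136 at 90 min and 50.01 and 54.1 at 6 h in wild type, against 55.6, 44.5 and 95.4 in GdX-deficient spleen. At 90 min the GdX-deficient sums were thus below both wild-type sums, and at 6 h the single library was above both. Their part in the values of Des was not tested. Tagln had an interaction of 2.96 and Serpinh1, the collagen chaperone gene, of 2.71, with limma adjusted p = 0.093 and 0.059. Ephx1, which encodes a detoxifying epoxide hydrolase, completed the 8 called genes. It stood at 33.4, 48.9 and 45.3 FPKM in GdX-deficient spleen and fell from 44.1 and 44.3 FPKM to 3.54 and 4.08 FPKM in wild type (interaction 3.40, SE 0.44, limma adjusted p = 0.0430).

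**Figure D4:**
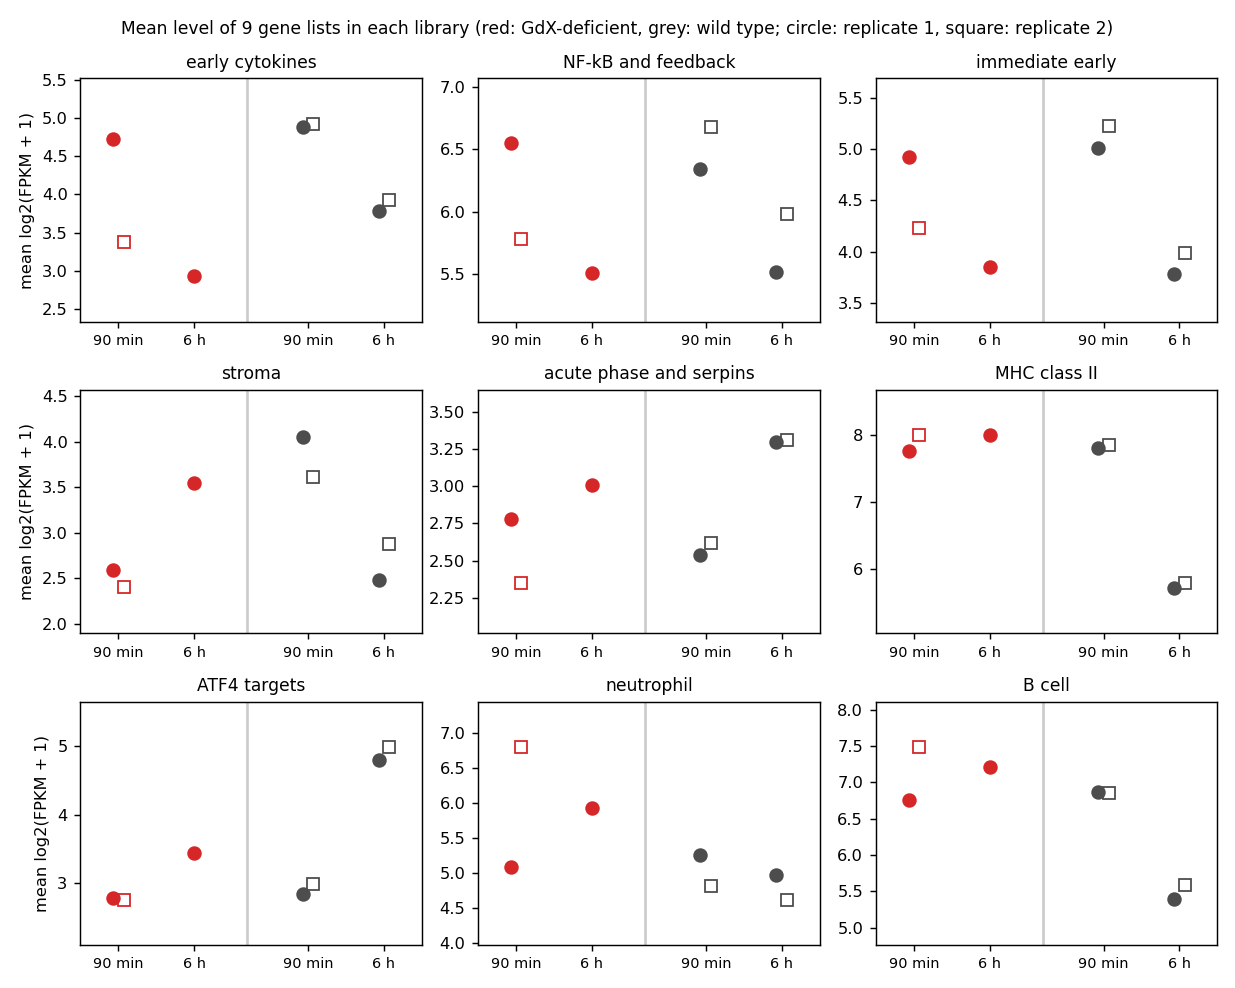
Mean log2(FPKM + 1) over the genes of 9 lists in each of the 7 libraries, by time, with GdX-deficient libraries in red and wild-type libraries in grey; circles are replicate 1 and squares replicate 2, and the vertical scales differ between panels. The 90 min GdX-deficient replicates lie far apart for early cytokines and neutrophil genes, and close together for ATF4 targets and stroma.

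Several further lists had medians of opposite sign in the genotypes. Cytosolic heat shock genes had medians of 0.46 in GdX-deficient and -0.63 in wild-type spleen, with a median interaction of 1.01. Their summed FPKM, however, was higher at 6 h in both genotypes. It went from 2586 and 3256 to 3628 in GdX-deficient spleen, and from 3578 and 3417 to 5914 and 4623 in wild type. In GdX-deficient spleen the heat shock median was 0.75 against replicate 1 and 0.11 against replicate 2. Lymphoid chemokines and their receptors had medians of 0.77 and -0.98, coagulation genes 0.22 and -0.69, and prostaglandin and leukotriene genes 0.49 and -0.48. In GdX-deficient spleen the prostaglandin median was 0.55 against replicate 1 and -0.0019 against replicate 2, and it was -0.02 over genes with a mean of at least 5 FPKM. The lymphoid chemokine median was 0.31 against replicate 1 and 1.30 against replicate 2. Against replicate 1 the coagulation median was -0.09, and after quantile normalization it was -0.02.

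MHC class I and its peptide-loading genes had medians of 0.54 and 0.57, and 4 of 16 rose in wild type by limma. By the 2-fold rule none was counted in GdX-deficient spleen, beside 5.73% of all genes. Above both replicates lay 14 of 16, as did 56.8% of all genes, and against replicate 2 alone 2 were counted as higher. Acute phase genes had medians of 0.88 and 1.08, although Saa3 went from 120 and 109 FPKM to 2040 and 1033 FPKM in wild type (interaction -2.24, limma adjusted p = 0.28). Of 24 genes for chaperones of the endoplasmic reticulum none was counted in GdX-deficient spleen, beside 5.73% of all genes. Above both replicates lay 20 of the 24 (56.8% of all genes did), and 1 fell in wild type by limma. Their medians were 0.38 and -0.22. In the list of BAG6, GET and related insertion genes, partners of GdX, 1 of 20 was counted as higher, Wrb, at 4.92 FPKM against 1.04 and 2.43 FPKM, which is near the 4.09% of all genes. Wrb lost its count under quantile normalization and against replicate 2 alone. Bag6 stood at 42.3, 41.1 and 44.8 FPKM and Sgta at 22, 25.1 and 35.1 FPKM.

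At the limits of the rule, Lmcd1 with a difference of 1.0003 and Dmpk with -1.0033 were just counted, and Tmem35 with 0.9988 and Pnpt1 with -0.9953 were not. Kcnip3, with a mean of 1 FPKM over the 7 libraries, was just tested, and 1810046K07Rik, with 0.9971 FPKM, was not. At least 2-fold from each 90 min library were 346 genes (3.04%), 261 higher (2.29%) and 85 lower (0.747%). Of the counted genes, 59 of the higher and 73 of the lower belong to a gene list, which together held 840 tested genes.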

How the data were processed

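RNA of 7 spleen libraries was sequenced on a BGISEQ-500 after oligo dT selection or rRNA depletion (the labels' protocols name both). The authors deposited FPKM values with 2 decimals for 17920 genes, per the file headers. The submitters' processing notes name HISAT, HISAT2 2.0.4, Bowtie2, RSEM and the build GRCm38.p5, without roles. Depth was estimated from the steps of low FPKM values in 205 to 250 single-transcript genes per library.

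Genes with a mean of at least 1 FPKM over the 7 libraries were kept, and values were used as log2(FPKM + 1) with no rescaling. The wild-type and interaction tests used limma 3.58.1 in R 4.3.3, with a trend on mean expression and Benjamini-Hochberg adjustment over 11378 genes. They were also run on simulated data that gave every library the same spread for a gene and held no transcript-length effect. Such data cannot show how the tests behave if the lone 6 h library varies otherwise. P-values measure only the spread between these libraries.

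Named genes are the 15 furthest above and below the 90 min mean that are at least 2-fold from each 90 min library, the genes past the interaction threshold (at most 10 per direction), and members of 50 gene lists. Of the 15 furthest above, 1 is not reported here. Immunoglobulin, T-cell receptor and predicted genes were left out. Hbb-b1, Gm44504 and the genes at the limits of the rule were named after their values were seen. Members and lists were chosen with earlier results of these data known, so they are no independent evidence. Promoters came from RefSeq (GRCm38.p6) and were joined by gene identifier for 9146 genes. Alternatives were the pseudocount, filters, scalings, fold, replicate block and left-out libraries.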

Additional observations from a re-analysis of the deposited data

Results flagged for a closer look

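The limma interaction test of genotype and time called 8 genes, with 1 GdX-deficient library at 6 h that is assumed to vary like the other groups. In log2 units, as GdX-deficient minus wild-type change, the difference was 3.39 for H2-Oa, 3.39 for Des, 3.40 for Ephx1 and 3.15 for Cd5l. It was -3.62 for Slc7a3, -3.59 for Trib3, -3.00 for Cth and -2.73 for Bcat1. For Slc7a3, Cth and Bcat1 every GdX-deficient library was under 1 FPKM, and they passed the filter on the mean only through wild type at 6 h. None of the 8 was called with a pseudocount of 0.1, with no filter on low values, with scaling without globin genes or with either GdX-deficient 90 min library left out. With a mean of at least 5 FPKM, Slc7a3, Cth and Bcat1 were not tested and the others were not called. Adjusted p-values lay between 0.0422 and 0.0488, and over the alternatives they reached 0.221 for each of the 8.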

How the results depend on the processing

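The count of 652 genes in GdX-deficient spleen was 1033 with a pseudocount of 0.1, 421 with a mean of at least 5 FPKM, 2301 at 1.5-fold and 54 at 4-fold, and 585 to 1336 when replicate 1 or 2 at 90 min was left out. The wild-type count of 1218 was 635 with no filter, 708 when scaled to the FPKM sum without globin genes, and 450 to 1774 with a library left out. The interaction count of 8 was 0 with a pseudocount of 0.1, 0 with a mean of at least 5 FPKM, 0 with scaling without globin genes, 3 with no filter, 4 with quantile normalization, and 0 to 238 with a library left out. The cause was not tested. With the replicate number as a block it was 80, and the wild-type count 2345. The numbers do not pair the samples: correlations of the replicates' deviations were -0.12, 0.08 and 0.77 between GdX-deficient 90 min and wild-type 90 min, GdX-deficient 90 min and wild-type 6 h, and the wild-type times. No gene named by its size or by the interaction test changed direction under the alternatives run for it. A single 6 h library and 2 unlike 90 min replicates limit every value.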
